A study of Homo sapiens with 6 samples.

Results

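Keratins, the intermediate filament proteins of epithelial cells, were examined in RNA-seq data from the established human cell line MDA-MB-231, a model of triple-negative breast cancer (TNBC). The set held 10 of the 17631 genes measured and was chosen by gene symbol: KRT7, KRT8, KRT18 and KRT19 of luminal or simple epithelium, KRT5, KRT14 and KRT17 of basal epithelium, KRT81 and KRT86 of hair, and KRT80. All 10 symbols had a row in each of the 6 libraries. Of these libraries, 3 came from cells given vehicle and 3 from cells given 30 µM PDBAG1 for 24 h. PDBAG1 is a synthetic peptide in which a fragment of the enzyme GPD1 is joined to a cell-penetrating peptide, and its effect on the TNBC transcriptome was the question behind the experiment. No genetic change was described for either group, 1 cell line, 1 dose and 1 time were covered, and the labels named the cell line but also described the source as tumour tissue of the breast. Nothing stated that the libraries of a group came from separate cultures, so p values measure only the spread between these libraries, which may be technical.

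Expression was given as TPM, a unit of transcript abundance scaled for transcript length and to the same sum in every library. TPM keeps no sequencing depth, so the depth behind each value is unknown. Between 12392 and 12611 genes per library reached 1 TPM, and log2 differences between libraries had an SD of at most 0.18 within a treatment and of at least 0.28 across treatments. The 12582 genes with at least 1 TPM in 3 or more libraries were tested together on log2(TPM + 1) with limma, and a gene was called where the Benjamini-Hochberg adjusted p was below 0.05. The log2 change is the mean log2(TPM + 1) with PDBAG1 minus that with vehicle, which makes the change of low genes look smaller than it is.

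Keratin filaments are built from pairs of 1 acidic type I chain and 1 basic type II chain, and neither chain forms filaments alone. KRT8 pairs with KRT18 in simple epithelia, joined by KRT7 and KRT19 in ducts and in the luminal layer of the breast, whereas KRT5 pairs with KRT14 in basal cells and KRT17 appears in basal-like tumours and stressed epidermis. KRT81 and KRT86 are type II keratins of the hair cortex, and KRT80 is a type II keratin of differentiating epithelia. Pathologists read these chains to tell luminal from basal breast tumours.

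The genes lie in 2 clusters. On GRCh38 with GENCODE 44 annotation, the type II genes were KRT80 (chr12:52168996-52192014, minus strand), KRT7 (chr12:52232520-52252186, plus strand), KRT86 (chr12:52249300-52309163, plus strand), KRT81 (chr12:52285913-52291534, minus strand), KRT5 (chr12:52514575-52520530, minus strand) and KRT8 (chr12:52897187-52949954, minus strand). The type I gene KRT18 (chr12:52948871-52952906, plus strand) stood beside KRT8, and KRT19 (chr17:41523617-41528308), KRT14 (chr17:41582279-41586895) and KRT17 (chr17:41619442-41624842) were all on the minus strand of chromosome 17.

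KRT81 lay inside the span of KRT86 on the opposite strand, with 0 exon bases shared, and the coding sequences of this pair were 93.6% identical over 1454 aligned bases, with an unbroken identical run of 605 bases. A stretch of 90 coding bases that is the same in both genes is shown because it bears on how far their levels can be told apart: a read from within it fits either gene. No base differs within it, so none is in capitals, whereas 9 of the 90 coding bases just before it differ.

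KRT81, chr12:52291286-52291375, minus strand: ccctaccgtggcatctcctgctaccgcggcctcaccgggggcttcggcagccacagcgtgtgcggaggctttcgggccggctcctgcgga

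KRT86, chr12:52302007-52302096, plus strand: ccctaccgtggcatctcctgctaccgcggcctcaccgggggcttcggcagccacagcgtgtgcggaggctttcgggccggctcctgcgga

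Cut into windows of 50 bases, 38.4% of the canonical KRT81 transcript occurred exactly in transcripts of KRT86, and 32.8% of KRT86 occurred in those of KRT81. Shared windows were also common in KRT18 (52.8% of windows, in transcripts of 45 other genes) and KRT8 (39.2%, in 38 other genes). Transcripts of KRT8 that start upstream ran over KRT18 on the other strand, with 525 exon bases in common, and 23.9% of the KRT18 windows occurred in KRT8 transcripts. The canonical KRT8 transcript itself had 0 exon bases in common with another gene. Its matches, and the remaining ones of KRT18, were largely to their pseudogenes. By contrast, KRT19 shared 1.79% of its windows, KRT80 0.42%, KRT5 4.52% and KRT7 11.7%, the last mostly with its antisense transcript KRT7-AS. KRT14 shared 24.2%, most often with KRT16, and KRT17 shared 18.3%. The submitters' processing notes name RSEM, a tool that estimates how reads that fit several genes are divided. Its settings, and whether counting used strand, are not given in the sources used here. Levels of KRT81 against KRT86, and of KRT8 against KRT18, are therefore less certain than that of KRT19.

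In vehicle-treated cells the luminal keratins and 1 hair keratin made up nearly all keratin transcripts of the set, and the basal keratins were close to 0. KRT19 was the most abundant, at 637 ± 24.6 TPM (SD, n = 3), ahead of KRT8 at 578 ± 6.21 TPM (SD, n = 3). KRT18 stood at 518 ± 9.73 TPM and KRT81 at 514 ± 9.87 TPM (SD, n = 3 each). The ranges of KRT18 and KRT81 overlapped, so these neighbours did not differ beyond their spread. KRT7 followed at 352 ± 2.06 TPM, then KRT80 at 58.4 ± 1.63 TPM and KRT86 at 27.2 ± 1.36 TPM (SD, n = 3 each). The hair keratin KRT81 was thus at the level of a luminal keratin, and on average 19.0 times the level of its neighbour KRT86. The order of these 7 genes was the same with PDBAG1, where the ranges of KRT18 and KRT81 again overlapped, and every other pair of neighbours among them was separate in both groups.

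**Figure D1:**
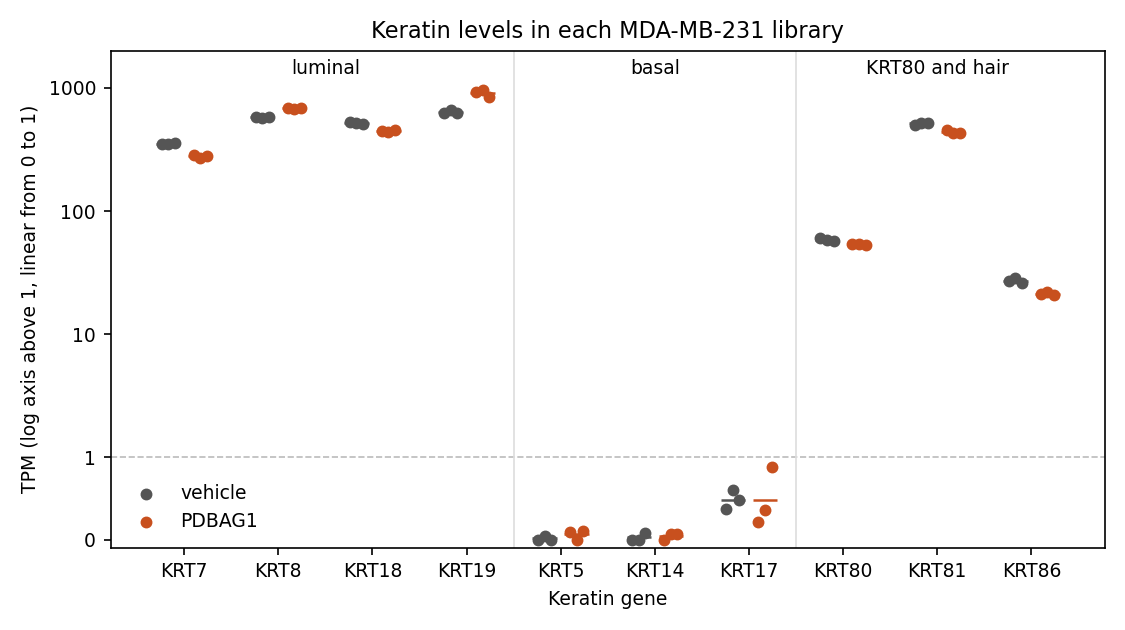
Keratin levels in TPM (vertical axis, logarithmic above 1 TPM and linear from 0 to 1) for the 10 genes (horizontal axis), with 1 point per library, vehicle in grey and PDBAG1 in orange, and a short line at each mean. The 4 luminal keratins and KRT81 sat between 267 and 960 TPM in every library, whereas KRT5, KRT14 and KRT17 stayed under 1 TPM.

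The luminal keratins moved apart with PDBAG1: KRT19 and KRT8 rose, while KRT7 and KRT18 fell. KRT19, a type I keratin with a very short tail domain, measured 624, 666 and 623 TPM in vehicle replicates 1 to 3. With PDBAG1 the replicates measured 923, 960 and 836 TPM. All 3 treated libraries were above all vehicle libraries, and PDBAG1 replicate 3 was the lowest of the treated ones. The mean rose to 906 ± 63.6 TPM (SD, n = 3), a log2 change of 0.51 (SE 0.05, 95% interval 0.40 to 0.61, limma adjusted p = 2.99e-06) or 1.42-fold. This was the largest change in the set.

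KRT8, the type II chain of simple epithelia, measured 583, 571 and 579 TPM with vehicle and 692, 673 and 685 TPM with PDBAG1. The groups were separated by more than the spread within either. The rise was 18.3% on the log2(TPM + 1) scale, to a mean of 683 ± 9.62 TPM (SD, n = 3; log2 change 0.24, SE 0.03, limma adjusted p = 6.95e-05).

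KRT18, the usual type I partner of KRT8, measured 527, 520 and 508 TPM with vehicle and 447, 439 and 456 TPM with PDBAG1. Every treated library was below every vehicle library. The mean was 447 ± 8.37 TPM (SD, n = 3) with PDBAG1, a log2 change of -0.21 (SE 0.03, limma adjusted p = 0.000337).

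KRT7, the type II keratin of ducts and glands, had the tightest vehicle values of the luminal keratins, at 351, 350 and 354 TPM. With PDBAG1 it measured 287, 267 and 280 TPM, again with no overlap. The mean fell to 278 ± 9.89 TPM (SD, n = 3), a log2 change of -0.34 (SE 0.04, limma adjusted p = 1.35e-05).

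Both hair keratins fell. KRT81 measured 503, 516 and 523 TPM with vehicle and 453, 430 and 429 TPM with PDBAG1. The treated libraries were all lower, and PDBAG1 replicate 1 was the nearest to the vehicle group. The log2 change was -0.23 (SE 0.04, limma adjusted p = 0.000237), with a treated mean of 437 ± 14.1 TPM (SD, n = 3). KRT86 measured 27.1, 28.6 and 25.9 TPM with vehicle and 21.2, 21.9 and 21.0 TPM with PDBAG1. The groups did not overlap, and the log2 change was -0.33 (SE 0.06, limma adjusted p = 0.000823). Since this pair shares long identical stretches, reads of one could be counted in the other.

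KRT80 measured 60.2, 58.1 and 57.0 TPM with vehicle and 54.1, 53.5 and 53.4 TPM with PDBAG1. The groups did not overlap, and the log2 change was small at -0.12 (95% interval -0.22 to -0.02). The unadjusted limma p was 0.0248, but KRT80 missed the threshold after adjustment, with a limma adjusted p of 0.0619. KRT80 passed the threshold under 2 other scalings between libraries, with a log2 change of -0.15 after median-of-ratios scaling (limma adjusted p = 0.0132) and -0.13 after quantile normalization (limma adjusted p = 0.0216).

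The 3 basal keratins were under 1 TPM in all 6 libraries and were not tested. KRT17 measured 0.37, 0.61 and 0.48 TPM with vehicle and 0.21, 0.36 and 0.88 TPM with PDBAG1. The treated libraries included both the lowest and the highest value. KRT5 was listed at 0, 0.05 and 0 TPM with vehicle and at 0.09, 0 and 0.10 TPM with PDBAG1, and KRT14 at 0, 0 and 0.08 TPM and at 0, 0.07 and 0.07 TPM. Both groups of KRT5 and of KRT14 held a library at 0, and these levels cannot be told from background without the read counts. Summed, the basal keratins took 0.0197% of the TPM of the set with vehicle and 0.0212% with PDBAG1.

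Of the 10 keratins, 7 were tested. KRT8 and KRT19 were called higher, against 21.7% of all genes tested called higher, and KRT7, KRT18, KRT81 and KRT86 were called lower, against 15.9% of all genes called lower. None was called at a fold change of at least 1.5 (3.34% of all genes in either direction), and all 7 had an unadjusted limma p under 0.05. All 7 had groups that did not overlap, as 47.4% of all genes tested did. The median log2 change of the 7 was -0.21, beside 0.03 over all genes tested, and the median absolute log2 change was 0.24, beside 0.14.

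**Figure D2:**
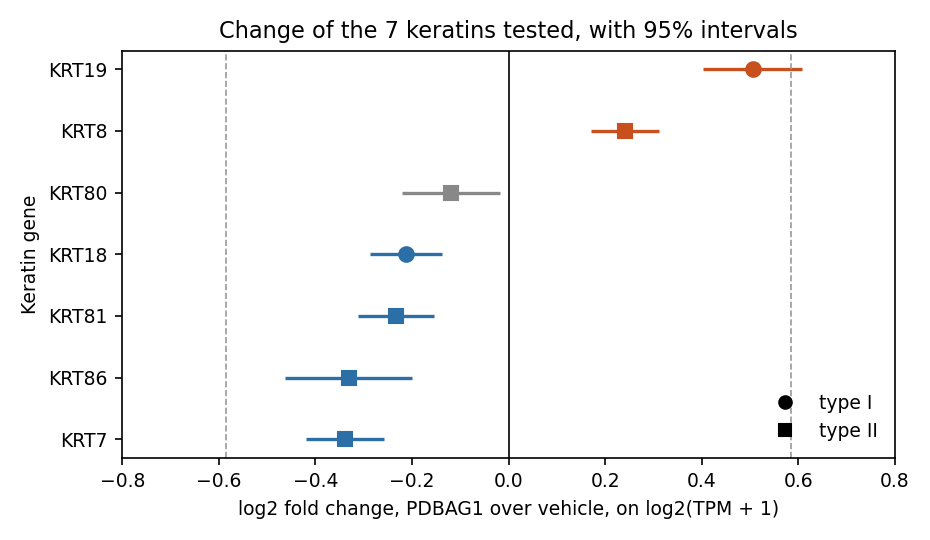
Log2 change, PDBAG1 minus vehicle on log2(TPM + 1) (horizontal axis) for the 7 keratins tested (vertical axis), with 95% intervals from limma, circles for type I and squares for type II, orange for called higher, blue for called lower and grey for not called. KRT19 at 0.51 and KRT8 at 0.24 lay to the right of 0 and the other 5 between -0.34 and -0.12, all within the dashed lines that mark 1.5-fold.

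The summed level of the set differed little between treatments, while the shares of single keratins in it differed more, those of KRT19 and KRT8 being higher with PDBAG1 and those of KRT18, KRT7, KRT81, KRT80 and KRT86 lower. The 10 genes summed to 2675, 2710.4 and 2669 TPM with vehicle and to 2878, 2845 and 2761 TPM with PDBAG1, which was 0.268% and 0.283% of all TPM on average. The 3 treated sums were above the 3 vehicle sums, with a ratio of means of 1.05. The luminal keratins summed to 2085 ± 21.9 TPM (SD, n = 3) with vehicle and 2315 ± 50.6 TPM (SD, n = 3) with PDBAG1. KRT80 and the hair keratins summed to 599.8 ± 7.95 and 512 ± 14.3 TPM (SD, n = 3 each). Neither sum overlapped between the groups. Because the libraries are of whole cultures, fewer cells with a keratin and less of its RNA per cell cannot be told apart.

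As a share of the set, the luminal keratins went from 77.6% ± 0.319 to 81.9% ± 0.326 (SD, n = 3 each), and KRT80 with the hair keratins from 22.3% ± 0.316 to 18.1% ± 0.324 (SD, n = 3 each). The higher luminal share came from KRT19 and KRT8 only, and the other 2 luminal keratins had lower shares. KRT19 went from 23.7% to 32.0%, and KRT8 from 21.5% to 24.2%. The shares of KRT18 (19.3% to 15.8%), KRT81 (19.2% to 15.5%) and KRT7 (13.1% to 9.83%) were lower with PDBAG1. None of these shares overlapped between the groups.

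**Figure D3:**
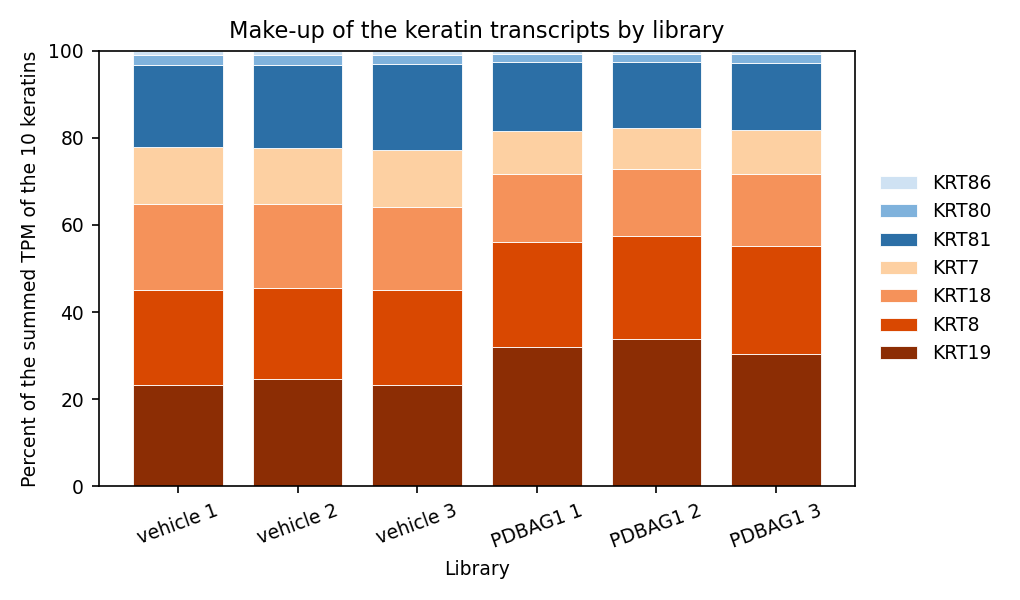
Percent of the summed TPM of the 10 keratins (vertical axis) that came from each gene, in the 6 libraries (horizontal axis), with luminal keratins in orange tones and KRT80 and the hair keratins in blue. The basal keratins are too low to be drawn, and the KRT19 segment took 23.3% to 24.6% with vehicle and 30.3% to 33.8% with PDBAG1.

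The balance between the chain types also differed. Type I genes of the set summed to 1156 ± 28.5 TPM with vehicle and 1354 ± 55.2 TPM with PDBAG1, whereas type II genes summed to 1529 ± 8.56 and 1474 ± 31.5 TPM (SD, n = 3 each). Type II transcripts were 57.0%, 56.2% and 57.6% of the set with vehicle and 52.4%, 50.8% and 53.2% with PDBAG1. The treated libraries were all lower, and the mean went from 56.9% to 52.1%, a difference of -4.83 percentage points. The higher type I sum came from KRT19 alone, whose mean went from 637 to 906 TPM. KRT18 fell from 518 to 447 TPM, and KRT14 and KRT17 were under 1 TPM. The lower type II share thus rests on KRT19 and does not describe type I genes in general. Direction did not follow chain type, since type I held a rise (KRT19) and a fall (KRT18), and type II held a rise (KRT8) and 3 falls (KRT7, KRT81 and KRT86).

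Ratios within each library compared genes without regard to scaling between libraries. KRT8 over KRT18 was 1.107, 1.097 and 1.141 with vehicle and 1.547, 1.533 and 1.504 with PDBAG1. The 2 chains of this pair were near parity with vehicle and apart with PDBAG1, a difference of 0.45 in the log2 ratio of TPM + 1. KRT7 over KRT19 was 0.562, 0.526 and 0.568 with vehicle and 0.311, 0.278 and 0.334 with PDBAG1, a difference of -0.84 in the log2 ratio. For both pairs every treated library lay on 1 side of every vehicle library, and the exact two-sided permutation test gave p = 0.1 for each, the smallest value that 3 against 3 libraries allow (0.2 after adjustment over the 4 pairs examined).

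KRT81 over KRT86 was 18.6, 18.1 and 20.2 with vehicle and 21.4, 19.6 and 20.4 with PDBAG1. These ranges overlapped, and the log2 ratio differed by 0.10 (exact two-sided permutation p = 0.2, adjusted 0.267). The mean log2 ratio of KRT5 to KRT14 was -0.01 with vehicle and 0.02 with PDBAG1 (exact two-sided permutation p = 0.7), but with both genes near 0 TPM this ratio carries little.

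**Figure D4:**
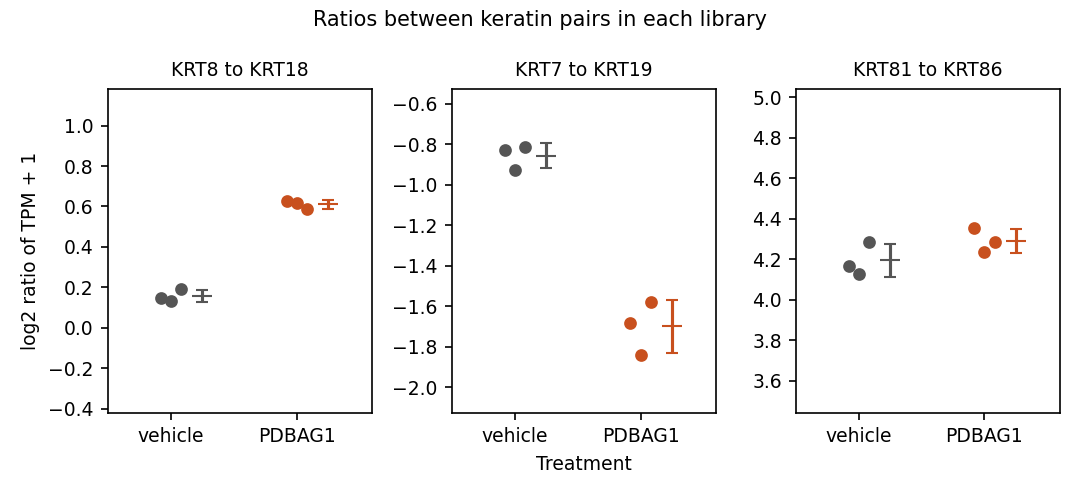
Log2 ratio of TPM + 1 (vertical axes, each spanning the same range of log2 units) for 3 keratin pairs in the 3 vehicle (grey) and 3 PDBAG1 (orange) libraries, with the mean and SD beside the points. KRT8 to KRT18 moved up from 0.16 to 0.61 and KRT7 to KRT19 down from -0.86 to -1.70, whereas the groups overlapped for KRT81 to KRT86.

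Few other keratins were expressed. Of 45 further type I and type II keratin genes listed, 26 had a row, 21 of these were under 1 TPM in every library and 4 were tested. KRT15, a type I keratin of basal cells, measured 5.97, 5.75 and 5.27 TPM with vehicle and 8.31, 9.62 and 7.56 TPM with PDBAG1, and it rose with a log2 change of 0.51 (limma adjusted p = 0.000972). KRT10, the type I keratin of differentiating epidermis, measured 46.9, 47.1 and 49.4 TPM with vehicle and 44.5, 38.7 and 40.3 TPM with PDBAG1, and it fell with a log2 change of -0.21 (limma adjusted p = 0.0118). The call of KRT10 was lost without vehicle replicate 3 (limma adjusted p = 0.0609) and without PDBAG1 replicate 2 (limma adjusted p = 0.0691).

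Among other hair keratins in the same stretch of chromosome 12 as KRT81 and KRT86, KRT84 and KRT82 averaged 0 TPM with vehicle. With PDBAG1 they averaged 0.0167 and 0.0133 TPM. KRT85 measured 1.70, 1.35 and 1.90 TPM with vehicle and 1.09, 1.27 and 0.90 TPM with PDBAG1 (log2 change -0.34, limma adjusted p = 0.0445). That call rested on single libraries, as the adjusted limma p was 0.097 without vehicle replicate 1, 0.173 without vehicle replicate 3, 0.0734 without PDBAG1 replicate 1 and 0.137 without PDBAG1 replicate 3. KRT83, whose coding sequence is 93.4% identical to that of KRT81, measured 0, 1.03 and 1.21 TPM with vehicle and 1.27, 0.83 and 1.96 TPM with PDBAG1, with a limma adjusted p of 0.148. Among the further keratins listed, whether or not of hair or of this stretch, KRT32 (type I) and KRT79 (type II) stayed under 1 TPM. Their means were 0.533 and 0.197 TPM with vehicle and 0.787 and 0.623 TPM with PDBAG1. KRT34, also type I, was listed at 0 in 5 libraries and at 2.47 TPM in PDBAG1 replicate 1, a value picked after it was seen. Along the 27 protein-coding keratin genes annotated from KRT80 to KRT18 on chromosome 12, those with substantial levels were KRT80, KRT7, KRT86 and KRT81 at one end and KRT8 and KRT18 at the other, all of them in the set.

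Among other intermediate filament genes, 9 of 13 with a row were tested, 3 rose and 3 fell, with a median log2 change of 0.18. VIM, the type III filament of mesenchymal cells, stood above every keratin at 4289, 4346 and 4174 TPM with vehicle and 5942, 5931 and 5758 TPM with PDBAG1. It rose with a log2 change of 0.46 (limma adjusted p = 1.02e-07), and its level over the summed keratins went from 1.59 to 2.08. Of the nuclear lamins, LMNA rose 1.56-fold, while LMNB1 and LMNB2 fell with log2 changes of -0.36 and -0.25.

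Desmosome and plakin genes, whose products anchor keratin filaments, gave 13 tested of 19 with a row, of which 6 rose and 2 fell (median log2 change 0.21). PLEC, encoding the cross-linker plectin, rose with a log2 change of 0.34 and PERP, a desmosomal membrane protein, with one of 0.33. The largest rises were those of DSP and JUP, with log2 changes of 0.52 and 0.47. The 2 genes that fell were PKP2 and PKP4, with log2 changes of -0.48 and -0.40. DST, another plakin, had a log2 change of 0.16 (limma adjusted p = 0.147), which passed the threshold without vehicle replicate 1 (limma adjusted p = 0.0296) or PDBAG1 replicate 1 (limma adjusted p = 0.0262).

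The list of keratin filament regulators held 16 genes, among them chaperones, kinases and 14-3-3 proteins, not all with a known action on keratin filaments. All were tested, 4 rose and 2 fell (median log2 change -0.01). SQSTM1, the autophagy receptor that gathers with keratins in inclusion bodies, had a mean of 1036 ± 20.3 TPM with vehicle (SD, n = 3) and rose to 1477 ± 15.2 TPM (SD, n = 3), by a log2 change of 0.51. HSPA8, a constitutive chaperone, fell with a log2 change of -0.25, and YWHAZ, a 14-3-3 protein, had one of 0.05 (limma adjusted p = 0.389).

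Transcriptional regulators linked to keratin genes gave 19 tested of 28 with a row, with 4 higher and 1 lower (median log2 change 0.09). CEBPB, encoding the factor C/EBPβ, measured 86.7, 97.1 and 88.2 TPM with vehicle and 172.6, 157 and 152 TPM with PDBAG1, a rise of 1.76-fold (limma adjusted p = 1.37e-07). The epithelial factor EHF and the repressor ZEB1 had log2 changes of 0.11 and 0.09 and were not called, although EHF passed without PDBAG1 replicate 1 (limma adjusted p = 0.026). Genes of the cornified envelope of epidermis gave 3 tested of 16 with a row, 1 of them lower. That gene was FLG, near 1 TPM (log2 change -0.35, limma adjusted p = 0.0438), and its call was lost without vehicle replicate 1 (limma adjusted p = 0.126), vehicle replicate 3 (0.141), PDBAG1 replicate 1 (0.0767) or PDBAG1 replicate 2 (0.157). CNFN and TGM1 had log2 changes of -0.17 and -0.0003.

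Markers of the cell types that carry these keratins were read beside them. Among 14 luminal breast markers, 8 were tested, 1 rose and 0 fell, and their summed level was 230 to 234 TPM with vehicle and 231 to 238 TPM with PDBAG1. The gene that rose was MUC1, a luminal surface mucin (1.53-fold, limma adjusted p = 7.02e-05), while XBP1 and CD24 had log2 changes of 0.04 and -0.09. PGR and CDH1, the latter encoding E-cadherin, were under 1 TPM in every library, ESR1 measured 1.96 to 3.38 TPM over all libraries, and PGR was listed at 0 in 1 library and ELF5 in 3. PGR, CDH1, ESR1 and ELF5 were thus low beside the luminal keratins. XBP1 (means of 138 TPM with vehicle and 141 TPM with PDBAG1) and CD24 (69.2 and 65.0 TPM) were higher and made up most of the summed level.

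Of 10 basal and myoepithelial markers, 9 were tested, 2 rose and 0 fell, with sums of 318 to 353 TPM with vehicle and 364 to 402 TPM with PDBAG1. EGFR and ITGA6 had log2 changes of 0.11 and 0.12 and were not called, ITGA6 passing without vehicle replicate 1 (limma adjusted p = 0.0451) or PDBAG1 replicate 1 (limma adjusted p = 0.0213). TP63, encoding the basal factor p63, measured 0.77 to 1.40 TPM.

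Of 9 mesenchymal markers, 6 were tested, 3 rose and 1 fell, and their sum went from 4981 to 5149 TPM with vehicle to 6764 to 6896 TPM with PDBAG1, most of it VIM. FN1, encoding fibronectin, rose 1.76-fold and CD44 rose 1.51-fold, and AXL, a receptor tyrosine kinase, fell with a log2 change of -0.26. CDH2, encoding N-cadherin, was under 1 TPM, and TWIST1 was listed at 0 in 2 libraries. Their part in the keratin changes was not tested.

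Of 11 markers of blood, vessel and fat cells with a row, 4 were tested, 2 rose and 0 fell, with sums of 262 to 276 TPM with vehicle and 323 to 346 TPM with PDBAG1. Most of each sum was CD68, a lysosomal protein also made outside macrophages, which rose with a log2 change of 0.31, and PECAM1 rose from 3.94 to 8.64 TPM. COL1A1 had a log2 change of 0.19 and was not called. The defining blood marker PTPRC was at or under 1.41 TPM in every library, and LEP was listed at 0 in 2 libraries and PDGFRA in 1.

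The genes whose log2(TPM + 1) values followed KRT19 most closely over the 6 libraries were VAC14 (Pearson r = 0.998), CDKN2D (r = 0.998) and HLA-B (r = 0.997), with log2 changes of 0.22, 0.11 and 0.27. These points share their libraries and 2 treatment groups, and 553 of the 12581 other genes tested had an r of at least 0.95 with KRT19, so the likeness is a description.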

How the data were processed

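The authors purified RNA with TRIzol, made mRNA libraries, ran them on a BGISEQ instrument, aligned the reads to GRCh38 with HISAT2 and, as the methods state, turned gene counts into FPKM. The submitters' processing notes name GRCh38.p12, HISAT2 2.0.4, Bowtie2 2.2.5 and RSEM 1.2.12. The deposited values are TPM rounded to 2 decimals, so depth and counting error are unknown and no count test was run.

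Groups followed the labels. Genes with at least 1 TPM in 3 or more libraries entered limma 3.58.1 (R 4.3.3; lmFit, then eBayes with a trend) as log2(TPM + 1), with Benjamini-Hochberg adjustment over 12582 genes. Sums and shares were not tested. Pair ratios were compared by an exact permutation test over libraries. Of 200 genes changed in data simulated for this comparison (12582 genes), 182 were recovered and 6 unchanged genes were called. These counts were not split by size of change. Recovery at the sizes seen in the keratins was not tested separately. Sequences and positions are from GENCODE 44, aligned with Biopython 1.88.

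The keratins and gene lists were chosen with earlier results of these data known. From each other list, genes called at 1.5-fold or more and the 3 most abundant genes were named, except 1 gene not reported here. Alternatives were other filters, pseudocount 0.1, median-of-ratios scaling, quantile normalization, no variance trend, the replicate number as a block, a fold limit of 2 and leaving out each library.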

Additional observations from a re-analysis of the deposited data

How the results depend on the processing

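The 7 keratins tested kept their direction in all 13 alternatives each, and all but KRT80 kept their call in each. The number called higher was 2 throughout, the number called lower 4 or 5, and the number at 1.5-fold 0 in 14 alternatives. With each library left out in turn these counts did not change. After median-of-ratios scaling the difference between treatments in the luminal sum was 178 TPM instead of 230 TPM, and that in the sum of KRT80 and the hair keratins -101 TPM instead of -87.5 TPM. This scaling divides whole libraries by a factor and moved the median log2 change of all genes from 0.03 to -0.0005. The basal sum differed by 0.0633 TPM, and by -0.165 to 0.21 TPM with 1 library left out. The log2 ratio of KRT5 to KRT14 differed by 0.04, and by -0.013 without vehicle replicate 3, -0.0153 without PDBAG1 replicate 1 and up to 0.10 without PDBAG1 replicate 2. Among the other genes, TGM1 changed sign with pseudocount 0.1 (0.0005) and ranged from -0.0855 to 0.0711 with a library left out, CNFN, with a range of -0.359 to 0.0831, did so without PDBAG1 replicate 3, COL1A1 passed the threshold without a variance trend and FLG did not without a filter on low values. The causes were not tested.

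In the fit with a replicate block, 2 keratins were called higher, 4 lower and 0 at 1.5-fold. Of the other genes named from the lists for abundance or a 1.5-fold call, only KRT85 lost its call (limma adjusted p = 0.0699). The labels give the numbers no shared origin, the deviations of same-numbered libraries correlated at -0.207, 0.012 and -0.078, and no vehicle library correlated best with its own number.

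TPM keeps no read counts, so values under 1 TPM, those of the basal keratins among them, could not be weighed against counting error.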
